A study of Mus musculus with 24 samples.

Results

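The genes described here are the 3 BATF factors, Batf, Batf2 and Batf3, and the 2 interferon regulatory factors that bind DNA with them, Irf4 and Irf8. Their probe sets were found by gene symbol, and they are 5 of the 19938 genes measured. Each was read by 1 probe set that carries no other gene symbol, so no choice between probe sets was needed.

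Expression was measured on 24 one-colour arrays with total RNA of naive CD4 T cells from 129SvEv mice. One genotype was wild type (WT), and the other was the double knockout that the labels call Batf1/3DKO, which lacks Batf and Batf3 (DKO). Cells of each genotype were taken unstimulated at day 0, after 2 days of culture under TH2 conditions, or after 4 days of that culture with anti-CD3e at 2.2 ng/ml or at 10 ng/ml. The soluble anti-CD3e triggers the T cell receptor, and all cultures also received anti-CD28, cross-linked by antibody on the plate. The concentration of anti-CD3e is not given for the day 2 cultures. Each of the 8 groups held 3 arrays, and nothing in the labels says whether these came from separate mice or separate cultures, and p-values therefore reflect only how these arrays scatter, which may be technical. The labels do not say which part of Batf or Batf3 was deleted. By its title, the study is about how BATF and IRF4, acting at enhancers with composite DNA elements, scale gene expression to the strength of T cell receptor signals.

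BATF, BATF2 and BATF3 are basic leucine zipper proteins of the AP-1 family. BATF and BATF3 are short and lack a transactivation domain of their own. BATF factors pair with JUN proteins, and recruit IRF4 or IRF8 to DNA where an AP-1 site lies next to an IRF half-site, the AP-1-IRF composite element (AICE). In T cells, BATF and IRF4 are needed for effector programmes such as TH2 and TH17, and IRF4 is known to rise with the strength of receptor stimulation. BATF3 and IRF8 are best known from the dendritic cells that cross-present antigen.

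Arrays of a group correlated at 0.971 to 0.984 on the log2 scale over all probe sets. The median probe set had an intensity of 28.6, used below as a guide, since levels under it can hold little but background and make folds too small. All 7 T cell markers, among them Cd3e and Cd4, lay above the guide in every group. Of the naive T cell markers, 4 of 6 were measured, and their summed intensity was 4538 to 5933 in day 0 arrays and 1579 to 2883 in arrays of cultured cells. For any result in these bulk samples, fewer cells expressing a gene and less RNA per cell cannot be told apart.

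The sequences below are the 250 bases before the RefSeq gene start (GRCm38.p6) of the 4 members for which a window was listed. They are shown because these 4 genes rose with stimulation in WT cells, and because the study is about regulatory elements with AP-1 sites. All lie on the forward strand, at chr12:85686470-85686719 for Batf, chr1:191098164-191098413 for Batf3, chr13:30748983-30749232 for Irf4 and chr8:120736108-120736357 for Irf8. Capitals mark matches to the motifs searched.
Batf: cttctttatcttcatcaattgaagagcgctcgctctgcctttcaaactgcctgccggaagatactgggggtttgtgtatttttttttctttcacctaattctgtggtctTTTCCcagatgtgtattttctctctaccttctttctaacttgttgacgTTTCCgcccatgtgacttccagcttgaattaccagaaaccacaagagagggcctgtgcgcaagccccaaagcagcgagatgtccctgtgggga
Batf3: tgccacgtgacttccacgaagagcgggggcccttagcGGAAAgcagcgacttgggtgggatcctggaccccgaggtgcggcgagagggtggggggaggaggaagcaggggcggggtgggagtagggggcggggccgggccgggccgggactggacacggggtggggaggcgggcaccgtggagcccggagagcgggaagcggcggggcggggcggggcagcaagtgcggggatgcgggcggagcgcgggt
Irf4: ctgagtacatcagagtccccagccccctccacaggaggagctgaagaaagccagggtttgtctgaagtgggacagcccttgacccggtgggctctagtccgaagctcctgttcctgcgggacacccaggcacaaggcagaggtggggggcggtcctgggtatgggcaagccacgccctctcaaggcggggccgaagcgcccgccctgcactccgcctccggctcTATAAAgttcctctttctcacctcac
Irf8: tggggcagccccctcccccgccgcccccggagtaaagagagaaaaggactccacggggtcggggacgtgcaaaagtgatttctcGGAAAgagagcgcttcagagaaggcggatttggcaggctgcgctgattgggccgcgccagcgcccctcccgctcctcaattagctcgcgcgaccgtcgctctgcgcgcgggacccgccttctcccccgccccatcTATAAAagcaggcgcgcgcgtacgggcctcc

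Both strands were searched for 3 short motifs, which do not overlap one another in these windows, and the share of all 32851 listed windows of this length that hold each motif is given with it. The AP-1 site TGANTCA, the part of an AICE that BATF and JUN bind, is in 6.75% of windows. It had no match in the 4 windows shown, which says only that these letters are not in them. Longer composite motifs were not searched.

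The NFAT core GGAAA is in 55.6% of all windows. It had 2 matches upstream of Batf, at positions -141 to -137 and -93 to -89 from the start, 1 upstream of Batf3 at -213 to -209, and 1 upstream of Irf8 at -166 to -162. The TATA box TATAAA, in 12.4% of windows, matched at -26 to -21 for Irf4 and at -31 to -26 for Irf8, and not for Batf or Batf3. The windows also differ in base composition, with GC contents of 46.4% for Batf, 63.6% for Irf4, 67.2% for Irf8 and 76% for Batf3, against a median of 52.4% over all windows. RefSeq lists another start for Irf8 further downstream, which is not printed.

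Batf, the member studied most in T cells, checks the genotype labels. In WT cells it read 114, 156 and 134 at day 0, 819, 781 and 565 at day 2, 1424, 1451 and 1652 at 2.2 ng/ml, and 1696, 1497 and 1593 at 10 ng/ml. The DKO arrays read 30.9, 28.2 and 34.5 at day 0, 29.0, 38.4 and 30.2 at day 2, 33.4, 26.7 and 36.5 at 2.2 ng/ml, and 43.0, 44.4 and 52.1 at 10 ng/ml. Every DKO array lay below every WT array, also the unstimulated ones.

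Batf was 4.31-fold lower in DKO than in WT cells at day 0 (adjusted p = 2.72e-08), 22.1-fold lower at day 2 (adjusted p = 1.66e-15), 47.2-fold lower at 2.2 ng/ml (adjusted p = 1.08e-17) and 34.4-fold lower at 10 ng/ml (adjusted p = 3.89e-17). These and all later adjusted p-values are from limma with Benjamini-Hochberg adjustment over 19938 genes, and an adjusted p under 0.05 counted as passing the test. Batf had the largest fall of all genes in DKO cells at day 0 and at day 2. The folds are limited by the dim end, since the DKO levels lie near the guide of 28.6.

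**Figure D1:**
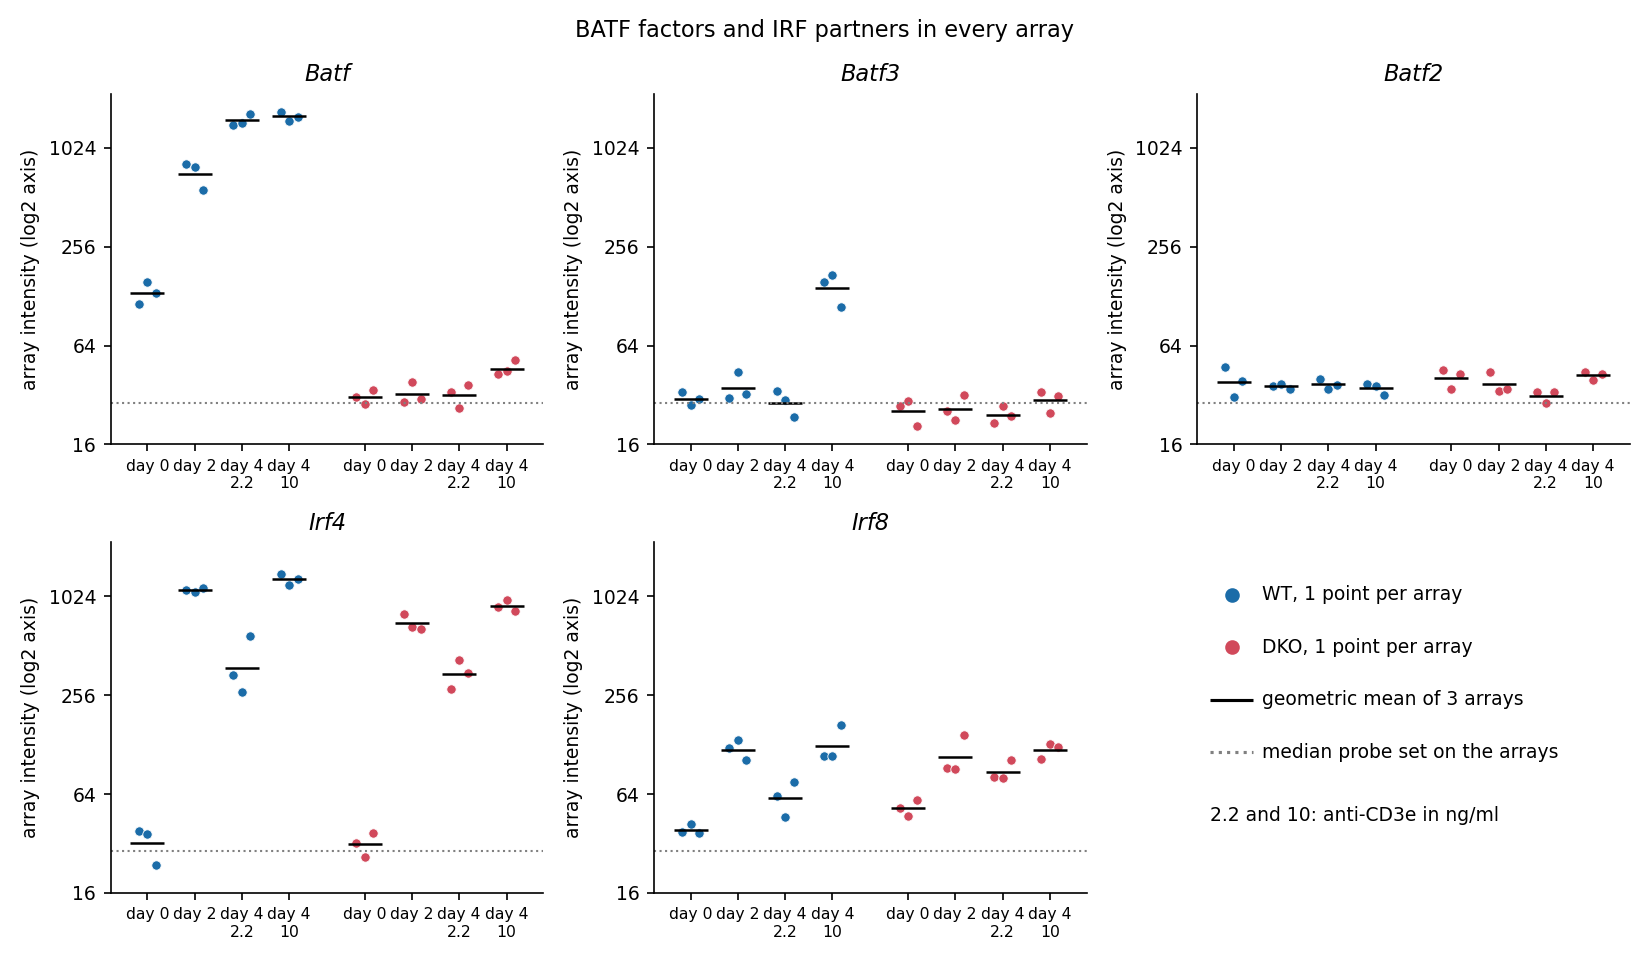
Array intensity (vertical axis, log2 scale) of the 5 genes in every array, by genotype and state (horizontal axis), with points for arrays, bars for geometric means of 3 arrays and a dotted line at the median probe set of 28.6. Batf is high in WT cells alone, Batf3 stands clear of the dotted line only at 10 ng/ml in WT cells, Batf2 is flat, and Irf4 and Irf8 rise in both genotypes with their lowest stimulated levels at 2.2 ng/ml.

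In WT cells Batf was higher at day 2 than at day 0, and higher still at day 4 at both concentrations. The day 2 concentration is not given, so day 2 and day 4 groups may differ in dose as well as in time. The rise over day 0 was 5.33-fold at day 2 (95% CI 4.26 to 6.65, adjusted p = 6.01e-12), 11.3-fold at 2.2 ng/ml (95% CI 9.01 to 14.1) and 11.9-fold at 10 ng/ml. Against day 2 it was 2.11-fold higher at 2.2 ng/ml (95% CI 1.69 to 2.64, adjusted p = 4.85e-05) and 2.24-fold higher at 10 ng/ml (95% CI 1.79 to 2.79, adjusted p = 3.83e-06). The 2 concentrations gave overlapping arrays at day 4, and their ratio of 1.06 (95% CI 0.847 to 1.32, adjusted p = 0.827) did not pass the test.

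In DKO cells the Batf probe set read between 26.7 and 38.4 in the first 3 states and between 43.0 and 52.1 at 10 ng/ml. The last group lay apart from the others and was 1.45-fold higher than at 2.2 ng/ml (95% CI 1.16 to 1.81, adjusted p = 0.0307) and 1.49-fold higher than at day 0 (95% CI 1.19 to 1.86, adjusted p = 0.00529). Between doses, a gap upward was found for 13.1% of all genes in DKO cells. For the gaps to day 0 and day 2 this share was not computed. The difference between doses did not pass without DKO replicate 1 (adjusted p = 0.0663) or replicate 2 (adjusted p = 0.184) at 2.2 ng/ml, or without replicate 2 (adjusted p = 0.0649) or replicate 3 (adjusted p = 0.152) at 10 ng/ml. Whether the probes lie in the deleted part of the gene is not known.

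Batf3, the BATF factor of cross-presenting dendritic cells and a product of stimulated T cells as well, was near the guide in 7 of the 8 groups. WT cells read 33.2, 27.8 and 30.2 at day 0, 30.8, 44.3 and 32.4 at day 2, and 33.7, 29.7 and 23.5 at 2.2 ng/ml. At 10 ng/ml they read 156, 173 and 110, above every other array of the series. DKO arrays lay between 20.7 and 33.3 throughout, and the genotypes stood apart only at 10 ng/ml. Genes that were not knocked out were also lower in DKO cells there, such as Ahr (270 in WT and 26.7 in DKO cells). The Batf3 reading therefore does not check the genotype label.

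At day 4 Batf3 was 5.02-fold higher at 10 than at 2.2 ng/ml in WT cells (95% CI 3.83 to 6.57, adjusted p = 2.43e-09). It was 4.06-fold higher at 10 ng/ml than at day 2 (95% CI 3.10 to 5.32, adjusted p = 1.81e-08), whereas 2.2 ng/ml against day 2 gave a log2 difference of -0.30 that did not pass the test (adjusted p = 0.362). At 10 ng/ml it was 4.86-fold lower in DKO than in WT cells (95% CI 3.71 to 6.36, adjusted p = 2.71e-09). Of the genes that were higher at 10 than at 2.2 ng/ml in WT cells, Batf3 had the 85th largest rise.

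Batf2, which can stand in for BATF3 in dendritic cells in mice, was dim and flat. Its 24 arrays lay between 28.4 and 47.4, and its group means spanned 0.42 on the log2 scale. It passed limma's adjusted test in none of the 19 comparisons, and its unadjusted p was under 0.05 in 3. For these 3, the share of all genes at that unadjusted level was not computed. All neighbours in the order of its group means overlapped. Between genotypes, the DKO arrays lay below all WT arrays at 2.2 ng/ml (log2 -0.24, adjusted p = 0.555) and above them at 10 ng/ml (0.27, adjusted p = 0.289). The share of all genes with gaps in these directions was not computed. Gaps in the opposite direction were found for 8.58% of all genes at 2.2 ng/ml and 11.1% at 10 ng/ml. The differences nearest to a call were between DKO groups, with 2.2 ng/ml lower than day 0 by a log2 value of -0.37 (adjusted p = 0.0714) and 10 ng/ml higher than 2.2 ng/ml by 0.42 (adjusted p = 0.0757).

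Irf4, the lymphocyte IRF that binds AICEs with BATF, rose strongly with stimulation in both genotypes. WT cells read 38.1, 36.5 and 23.7 at day 0, 1124, 1097 and 1148 at day 2, 338, 267 and 588 at 2.2 ng/ml, and 1399, 1197 and 1315 at 10 ng/ml. DKO cells read 32.2, 26.5 and 37.1 at day 0, 805, 664 and 652 at day 2, 281, 418 and 352 at 2.2 ng/ml, and 878, 971 and 838 at 10 ng/ml. In each genotype the 10 ng/ml and day 2 groups were high, the 2.2 ng/ml group was in between, and the day 0 group was near the guide.

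At 2.2 ng/ml the third WT array, with an intensity of 588, stood above the other 2. Changes of Irf4 and Irf8 in WT cells that rest on this group are given with and without that array. The same holds for the Irf4 differences between genotypes. For those of Irf8, the range over single omitted arrays is given. Omitting other single arrays made some of the WT changes smaller. Over all single omissions, the log2 dose response in WT cells was 1.54 to 2.11 for Irf4 and 0.86 to 1.23 for Irf8. The log2 change from day 2 to 2.2 ng/ml was -1.9 to -1.33 for Irf4 and -1.15 to -0.81 for Irf8. All of these passed limma's adjusted test.

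The order of group means was WT at 10 ng/ml, WT at day 2, DKO at 10 ng/ml, DKO at day 2, WT at 2.2 ng/ml, DKO at 2.2 ng/ml, WT at day 0 and DKO at day 0. Neighbours in this order did not overlap, with 2 exceptions: WT and DKO cells overlapped at 2.2 ng/ml and at day 0. Among the neighbours that lay apart, limma tested only 10 ng/ml against day 2 within each genotype. Neither passed (adjusted p = 0.583 in WT and 0.464 in DKO cells). The share of all genes with such gaps was not computed, so this order is not a tested ranking. All 3 DKO arrays at 10 ng/ml thus lay above all 3 WT arrays at 2.2 ng/ml, a comparison that was not tested.

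The rise of Irf4 from day 0 to day 2 was 35.03-fold in WT and 22.3-fold in DKO cells (95% CI 16.4 to 30.3, adjusted p = 2.87e-14). These were the 14th and the 25th largest rises among all genes. At 2.2 ng/ml Irf4 was 11.7-fold above day 0 in WT (95% CI 8.63 to 15.9, log2 3.55, or 3.23 without the third WT array) and 10.9-fold in DKO cells (95% CI 8.05 to 14.9). With 10 ng/ml it was 40.6-fold above day 0 in WT and 28.3-fold in DKO cells (95% CI 20.8 to 38.5). Day 0 levels lay near the guide, so these folds may be too small.

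Irf4 was lower at 2.2 ng/ml than at day 2, by 2.99-fold in WT cells (95% CI 2.20 to 4.06, adjusted p = 2.35e-05) and by 2.04-fold in DKO cells (95% CI 1.5 to 2.77, adjusted p = 0.00449). Dose and time cannot be told apart here, since the day 2 concentration is not given. Without the third WT array at 2.2 ng/ml the log2 change in WT cells was -1.90 (adjusted p = 4.43e-07), against -1.58 with it. At 10 ng/ml the level at day 4 differed from that at day 2 by 0.21 ± 0.21 (SE, log2) in WT cells (adjusted p = 0.583) and by 0.35 in DKO cells (adjusted p = 0.464), and neither passed the test.

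The dose response of Irf4 at day 4 was present in both genotypes. It was 3.46-fold higher at 10 than at 2.2 ng/ml in WT cells (95% CI 2.55 to 4.70, adjusted p = 1.17e-06) and 2.59-fold higher in DKO cells (95% CI 1.90 to 3.51, adjusted p = 0.000105). Without the third WT array at 2.2 ng/ml the log2 rise in WT cells was 2.11 in place of 1.79 (adjusted p = 2.49e-08). The difference between the genotypes in this dose response, -0.42 ± 0.30 (SE, log2, DKO change minus WT change), did not pass the test (adjusted p = 0.558), nor did it without that array (-0.74, adjusted p = 0.101).

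**Figure D2:**
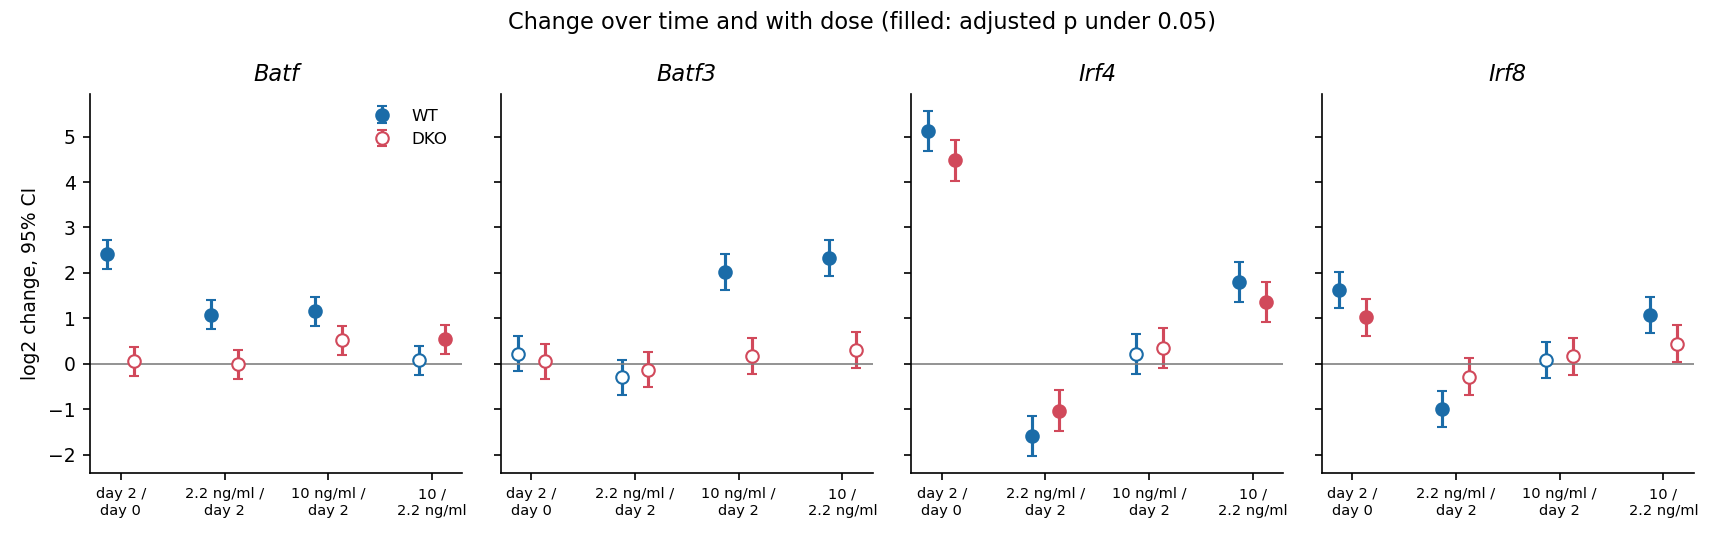
Log2 change (vertical axis) with its 95% confidence interval for Batf, Batf3, Irf4 and Irf8 in 4 comparisons (horizontal axis), WT in blue and DKO in red, filled where the adjusted p was under 0.05. In WT cells the dose response of Batf lies at 0.08, while those of Batf3, Irf4 and Irf8 lie at 2.33, 1.79 and 1.07. At 2.2 ng/ml Irf4 and Irf8 are lower than at day 2, whose concentration is not given, and Batf is higher.

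Irf8, which binds the same elements as Irf4 and is best known from dendritic cells and B cells, moved in the same direction as Irf4 in WT cells, by smaller amounts. WT cells read 37.6, 41.9 and 36.9 at day 0, 121, 137 and 103 at day 2, 62.2, 46.5 and 75.2 at 2.2 ng/ml, and 109, 109 and 170 at 10 ng/ml. DKO cells read 52.8, 47.3 and 58.6 at day 0, 91.8, 91.1 and 146 at day 2, 81.4, 80.1 and 103 at 2.2 ng/ml, and 105, 129 and 124 at 10 ng/ml. Every WT group after stimulation lay above WT day 0. From WT cells at 10 ng/ml down to DKO cells at 2.2 ng/ml, neighbouring groups in the order overlapped. WT cells at 2.2 ng/ml overlapped with unstimulated DKO cells, and the arrays of WT day 0 lay apart at the bottom.

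In WT cells Irf8 was 3.09-fold above day 0 at day 2 (95% CI 2.33 to 4.09, adjusted p = 2.63e-07), 1.55-fold at 2.2 ng/ml (95% CI 1.17 to 2.06, adjusted p = 0.0159) and 3.26-fold at 10 ng/ml (95% CI 2.46 to 4.32, adjusted p = 1.38e-07). The rise at 2.2 ng/ml did not pass without the third WT array of that group (log2 0.47, adjusted p = 0.119) or without the third WT array at day 0 (log2 0.60, adjusted p = 0.0546). At 2.2 ng/ml Irf8 was 1.99-fold lower than at day 2 (95% CI 1.5 to 2.63, adjusted p = 0.00139), a log2 difference of -0.99, or -1.15 without the third WT array at 2.2 ng/ml (adjusted p = 0.000479). With 10 ng/ml it was 2.10-fold higher than at 2.2 ng/ml (95% CI 1.59 to 2.78, adjusted p = 0.000305), a log2 rise of 1.07, or 1.23 without that array (adjusted p = 0.000175).

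In DKO cells Irf8 rose over day 0 by 2.03-fold at day 2 (95% CI 1.53 to 2.69, adjusted p = 0.000203), by 1.66-fold at 2.2 ng/ml (95% CI 1.25 to 2.20, adjusted p = 0.00785) and by 2.26-fold at 10 ng/ml (95% CI 1.71 to 2.99, adjusted p = 3.46e-05). The rise at 2.2 ng/ml did not pass without the third DKO array of that group (log2 0.62, adjusted p = 0.0589). The dose response at day 4 had non-overlapping arrays and a ratio of 1.36 (95% CI 1.03 to 1.80), and it did not pass the test (adjusted p = 0.211). Such a gap upward was found for 13.1% of all genes. The dose response differed between the genotypes by -0.63 ± 0.28 (SE, log2), which did not pass either (adjusted p = 0.221). Leaving out single arrays moved this difference between -0.79 and -0.42, and it did not pass.

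Irf8 and Batf3 are markers of dendritic cells, so the other cell types were read from their own markers. All 6 dendritic cell markers measured, among them Itgax, Flt3 and Xcr1, lay at or below the guide in every group, with summed intensities of 84.2 to 112.9 per array. The same held for all 7 monocyte and macrophage markers, with sums of 67.2 to 99.3. Of 6 B cell markers measured, 5 lay at or below the guide in every group, and the sum was 126.8 to 169.1 in DKO cells at 10 ng/ml against 69.8 to 111.9 in the other groups. The exception was Cd79b, a chain of the B cell receptor complex, at 88.8 ± 27.9 (SD, n = 3) in DKO cells and 27.2 ± 4.15 (SD, n = 3) in WT cells at 10 ng/ml. Cd79b also lay above the guide in unstimulated WT cells (29.0), in WT cells at 2.2 ng/ml (34.0) and in DKO cells at day 2 (38.8) and at 2.2 ng/ml (43.4). Of 5 CD8 T and NK cell markers, Cd8b1 lay above the guide in every group, with group means of 35.9 to 65.4, and the other 4 lay at or below it, with sums of 64.1 to 129.1 per array for the list. The part of these signals in the Irf8 level was not tested.

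The genotype comparison asks whether the IRF partners were held at other levels without Batf and Batf3. Neither Irf4 nor Irf8 passed the test in any of the 4 states. Before adjustment, limma's p was under 0.05 for each of them in 2 states. The share of all genes at that unadjusted level was not computed for these comparisons, so nothing is read from it. The shares that follow are for the adjusted test. Of all genes, 0.0652% passed at day 0, 2.71% at day 2, 3.71% with 2.2 ng/ml and 12.8% with 10 ng/ml. Of the 5 members, 1, 1, 1 and 2 passed, and these were the knocked-out genes: Batf in each state and Batf3 at 10 ng/ml.

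Irf4 was 1.60-fold lower in DKO cells at day 2 (95% CI 1.17 to 2.17, adjusted p = 0.0965) and 1.46-fold lower at 10 ng/ml (95% CI 1.07 to 1.98, adjusted p = 0.112). In both states the DKO arrays lay under the lowest WT array, as was the case for 11% of all genes at day 2 and 11.1% at 10 ng/ml. At day 0 the log2 difference was -0.02 (adjusted p = 0.993), and at 2.2 ng/ml it was -0.12 (adjusted p = 0.923) or 0.20 without the third WT array (adjusted p = 0.866). The call depended on the fit: with only the compared groups in the model, Irf4 passed at day 2 (adjusted p = 0.0223) and at 10 ng/ml (adjusted p = 0.0148). Array weights gave the same 2 calls (adjusted p = 0.0484 and 0.0409), and cyclic loess gave the one at 10 ng/ml (log2 -0.63, adjusted p = 0.0253).

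Irf8 was higher in all DKO than in all WT arrays at day 0, by a log2 value of 0.44 (95% CI 0.04 to 0.85, adjusted p = 0.662), and at 2.2 ng/ml, by 0.54 (95% CI 0.14 to 0.95, adjusted p = 0.162). Such a gap upward was found for 5.46% and 8.58% of all genes in these states. Leaving out single arrays moved the Irf8 difference at 2.2 ng/ml between 0.36 and 0.7, and it did not pass. At day 2 (-0.16, adjusted p = 0.734) and at 10 ng/ml (-0.09, adjusted p = 0.888) the arrays overlapped. The change of Irf4 with stimulation differed between the genotypes by -0.65 ± 0.30 at day 2 (adjusted p = 0.321) and by -0.52 at 10 ng/ml (adjusted p = 0.416), and that of Irf8 by -0.60 ± 0.28 (adjusted p = 0.318) and -0.53 (adjusted p = 0.349), all on the log2 scale. None of these 4 differences passed the test.

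**Figure D3:**
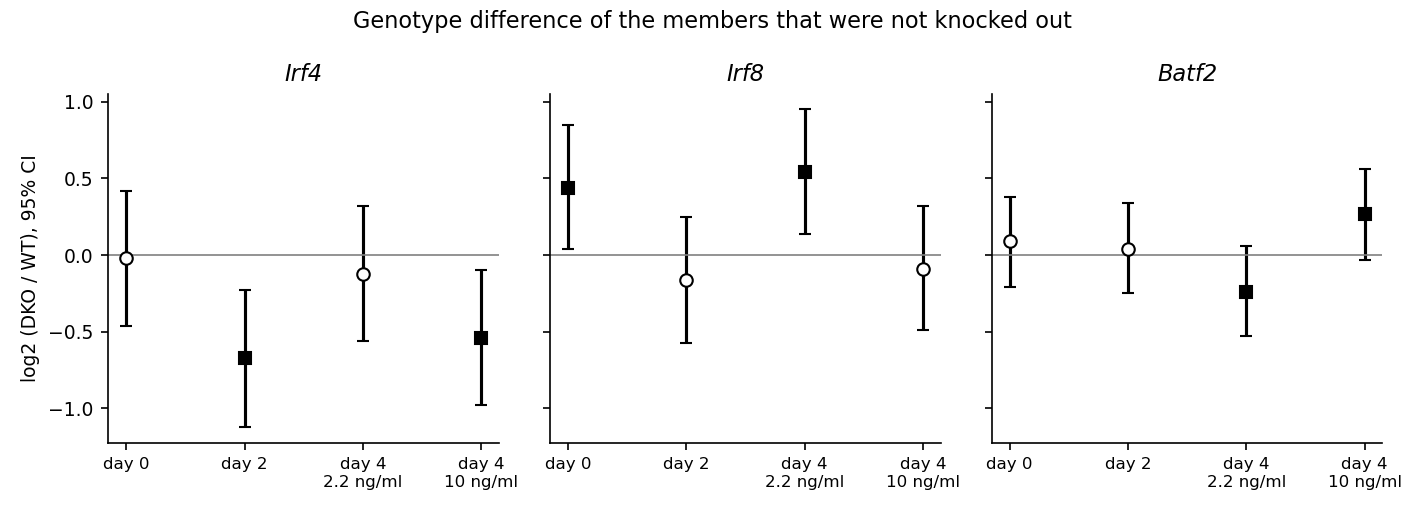
Log2 ratio of DKO to WT (vertical axis) with its 95% confidence interval for Irf4, Irf8 and Batf2 in the 4 states (horizontal axis), with filled squares where the arrays of the genotypes did not overlap and open circles where they did. Irf4 lies at -0.67 at day 2 and -0.54 at 10 ng/ml and near 0 in the other states, and Irf8 lies at 0.44 at day 0 and 0.54 at 2.2 ng/ml.

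Counted over the 5 members, the comparisons with day 0 gave 3 genes higher at day 2, 3 with 2.2 ng/ml and 4 with 10 ng/ml in WT cells, and none lower. The share of all genes called higher was 19.7%, 16.1% and 18.4%. In DKO cells 2, 2 and 3 members were higher, where 15.3%, 11.6% and 16.4% of all genes were. The third at 10 ng/ml was the Batf probe set, a knocked-out gene.

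From day 2 to day 4 in WT cells the members split: at 2.2 ng/ml Batf was higher and Irf4 and Irf8 were lower, where 4.74% of genes were called higher and 6.46% lower. At 10 ng/ml Batf and Batf3 were higher, where 10.3% of genes were. With the dose, 3 of 5 members were higher in WT cells (Batf3, Irf4 and Irf8, against 7.64% of genes) and 2 in DKO cells (Irf4 and the Batf probe set, against 4.47%). In DKO cells 1 member, Irf4, was lower from day 2 to 2.2 ng/ml, where 2.43% of genes were, and none passed from day 2 to 10 ng/ml, where limma called 5.18% of genes and 16.6% had an unadjusted p under 0.05.

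The knocked-out genes carried the calls in the comparisons of change between genotypes. Batf differed in its change by -2.36 at day 2 (adjusted p = 2.67e-06) and by -3.0 at 10 ng/ml (adjusted p = 9.98e-10), and Batf3 by -2.03 ± 0.27 at 10 ng/ml (adjusted p = 1.16e-05) and by -2.03 ± 0.27 between doses (adjusted p = 1.51e-05), on the log2 scale as DKO change minus WT change. Of all genes, 1.05%, 6.52% and 6.94% were called in the comparisons of the change to day 2, of the change to 10 ng/ml and of the dose response.

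The AP-1 partners, the JUN, FOS and related factors that pair or compete with BATF proteins, were measured for 9 of 9 genes. At day 2 in WT cells 3 were higher (Atf3, Fosl1 and Fosl2) and 5 lower (Fos, Fosb, Jun, Junb and Jund), with a median log2 change of -0.41 against -0.11 over all genes. Of all genes 19.7% were called higher and 20.5% lower. Jun, the classic BATF partner, fell 13.9-fold, from 815 ± 160 to 57.8 ± 2.90 (SD, n = 3). At day 4 in WT cells 5 were higher at 10 than at 2.2 ng/ml (Atf3, Fosl2, Jdp2, Jun and Junb) and none lower, with a median of 0.75 against -0.04. The share of all genes was 7.64% higher and 7.52% lower.

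Fosl2, a FOS-related factor, was 6.74-fold higher at 10 than at 2.2 ng/ml in WT cells, with levels of 80.0 ± 7.99 and 538.7 ± 36.6 (SD, n = 3). In DKO cells it read 45.1 ± 4.94 and 61.7 ± 10.7. The dose response differed between the genotypes by -2.31 (log2, DKO change minus WT change, adjusted p = 5.58e-07). Atf3, a stress-induced repressor of the same family, rose with dose in WT cells from 25.5, below the guide, to 312. In DKO cells it rose 1.91-fold, from 41.6 to 86.1, and the log2 changes differed by -2.67 (adjusted p = 3.11e-05).

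Junb, which forms the AICE-binding pair with BATF in T cells, rose with dose in both genotypes. It was 1.70-fold higher in WT cells (adjusted p = 0.00242) and 2.10-fold higher in DKO cells (adjusted p = 0.000155). It was also 1.91-fold lower in DKO than in WT cells at 2.2 ng/ml (adjusted p = 0.00128) and 1.55-fold lower at 10 ng/ml (adjusted p = 0.014). Of the 9 genes, 3 were lower in DKO cells at 10 ng/ml (Atf3, Fosl2 and Junb) and 1 higher (Jund). The share of all genes called there was 6.09% lower and 12.8% in either direction.

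The other IRF factors, measured for 6 of 7, had 4 members lower and none higher at day 2 in WT cells. These were Irf1, Irf2, Irf7 and Irf9, which act in interferon responses, with a median of -1.27 against -0.11 over all genes. Limma called 20.5% of all genes lower and 19.7% higher in that comparison. Irf1 fell 4.87-fold, from 327 to 67.3, and Irf7 fell from 141 to 23.9, below the guide. Irf3 and Irf5 did not pass there, and Irf5 was higher in DKO cells at 10 ng/ml than at day 0 (45.0 against 30.8, adjusted p = 0.0109). With dose, 2 were lower in WT cells (Irf2 and Irf7), where 7.52% of all genes were. In DKO cells Irf1 fell 2.23-fold with dose, from 164 ± 16.1 to 73.6 ± 8.86 (SD, n = 3, adjusted p = 2.3e-05), and Irf5 was higher. The ETS factors Spi1 and Spib, which recruit IRF4 and IRF8 to DNA in B cells and myeloid cells, had group means of 10.1 to 14.8, below the guide in every group.

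Factors driven by the T cell receptor (NFAT, EGR, NR4A and NF-kappa B genes) were measured for 9 of 11. Higher dose gave none higher and 3 lower in WT cells (Nfatc1, Nfatc3 and Rel), and in DKO cells only Nfatc2 passed, upward. Of all genes, 7.64% were called higher and 7.52% lower with dose in WT cells, and 4.47% higher in DKO cells. Rel, the NF-kappa B subunit c-Rel, known in lymphocytes to drive Irf4, was 3.13-fold higher in DKO than in WT cells at 10 ng/ml (702 ± 22.8 against 224 ± 7.08, SD, n = 3, adjusted p = 1.71e-10). Rel was also 1.69-fold higher at day 2 (adjusted p = 0.000275) and 1.87-fold higher at 2.2 ng/ml (adjusted p = 1.33e-05). Nfatc1 was 2.34-fold higher at 10 ng/ml (adjusted p = 7.9e-08). Of the 9, 4 were higher in DKO cells at 10 ng/ml and 2 lower, where 12.8% of all genes were called in either direction and 6.09% lower.

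The list of reported targets of BATF and IRF4 held 15 genes, all measured. At 10 ng/ml 12 were lower in DKO cells and 1, Icos, was higher, with a median log2 difference of -2.24 against 0.03 over all genes. At 2.2 ng/ml 9 were lower, at day 2 6 were, and at day 0 none passed in limma. Of all genes, 6.09%, 2.06% and 1.68% were called lower in DKO cells at 10 ng/ml, at 2.2 ng/ml and at day 2. With dose in WT cells 8 were higher and 2 lower (Bcl6 and Icos), where 7.64% of all genes were called higher and 7.52% lower. Il21, a helper cytokine, read 25.5 ± 3.91 at 2.2 and 372.5 ± 33.1 at 10 ng/ml in WT cells (SD, n = 3, adjusted p = 8.48e-13), the former below the guide, and its DKO group means were 6.45 to 8.54. Ahr, the aryl hydrocarbon receptor, read 24.8 ± 0.854 and 270 ± 52.2 at these concentrations in WT cells (SD, n = 3, adjusted p = 6.76e-13) and 26.7 ± 7.25 in DKO cells at 10 ng/ml. Folds are not given for these genes, since the lower levels are under the guide.

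Some targets were far below WT at the lower concentration too. Il10, an anti-inflammatory cytokine, read 428 ± 146 at 2.2 and 590 ± 267 at 10 ng/ml in WT cells (SD, n = 3), and 8.74 and 8.33 in DKO cells, below the guide. Prdm1, which encodes BLIMP-1, rose 1.79-fold with dose in WT cells, from 73.9 ± 13.3 to 131 ± 10.8 (SD, n = 3, adjusted p = 0.00242). In DKO cells it read 14.9 and 25.02, both below the guide. Bcl6, which opposes BLIMP-1, fell with dose by 2.28-fold in WT and by 2.31-fold in DKO cells. Its levels went from 128 ± 8.12 to 63.4 ± 32.2 in WT and from 150 ± 21.6 to 67.7 ± 27.4 in DKO cells (SD, n = 3). The WT arrays at 10 ng/ml scattered, at 75.8, 87.6 and 26.9, the last below the guide.

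**Figure D4:**
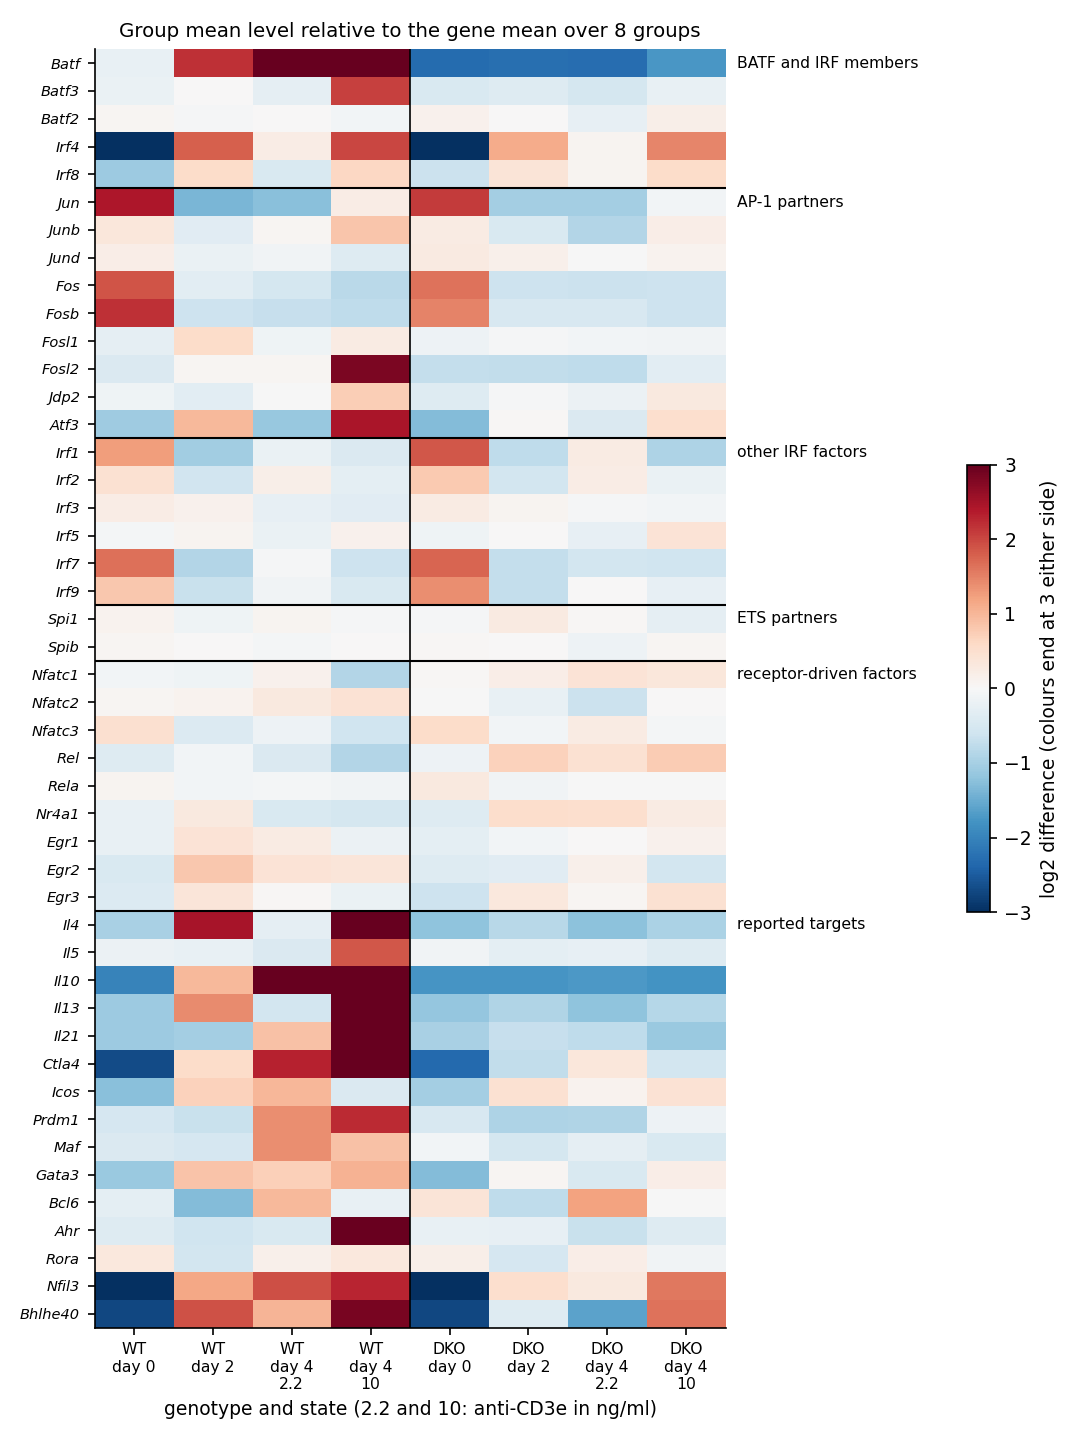
Group mean log2 level of each gene relative to its own mean over the 8 groups (colour, ending at 3 on either side), with genes in rows by list and genotype and state in columns. Irf4 and Irf8 are lowest at day 0 where Irf1, Irf2, Irf7 and Irf9 are highest, and Fosl2, Atf3, Il21 and Ahr are highest in the WT column at 10 ng/ml, as Batf3 is.

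For the 4 members other than Batf2, whose group means hardly differed, the genes with the most similar pattern were taken by the root mean square (RMS) difference of centred log2 group means among 18253 genes, over the 4 WT groups for the knocked-out genes and over all 8 groups for the others. Nearest to Batf was Cst7, which encodes cystatin F, at an RMS difference of 0.09, followed by Hsd17b7, Capg, Tanc2 and Ckb at 0.255 to 0.365. Cst7 read 77.0, 364, 843 and 979 in the WT groups in order of state. In DKO cells it read 68.3, 352, 588 and 442.

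Nearest to Batf3 were P4ha2 at 0.048, Il5 at 0.097, Selenbp2, Dhdh and Nucb2, the last at 0.144. P4ha2, a collagen prolyl hydroxylase subunit, read 24.7, 29.0, 22.01 and 117 in the WT groups in order of state, and 31.8 in DKO cells at 10 ng/ml. Il5, a TH2 cytokine, was below the guide except at 10 ng/ml in WT cells, where it read 44.9 ± 26.6 (SD, n = 3).

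Nearest to Irf4 were Tpi1 at 0.474 and Tnfrsf4, Ccr8, Ybx3 and Scd2 at 0.552 to 0.571. These distances are larger than for Batf, Batf3 and Irf8, but Batf and Batf3 were compared over 4 groups and Irf4 over 8. Distances also reflect how far a gene moves, so they do not rank the members by how unusual their patterns are. Tpi1 encodes a glycolytic enzyme and read 80.1, 1715, 1365 and 1735 in the WT groups and 76.9, 984, 512 and 1722 in the DKO groups, in order of state. Nearest to Irf8 were Rnf216 at 0.14 and Swap70, Eprs, Rap2a and Dclre1a at 0.17 to 0.194. Swap70 read 32.9, 76.4, 40.2 and 100.2 in the WT groups and 43.3, 86.1, 57.6 and 106 in the DKO groups, in order of state. Irf8 itself was the 716th nearest gene to Irf4, and Irf4 the 18075th nearest to Irf8, at the same RMS difference of 1.491. The group means were centred and not scaled, so this distance also reflects how far a gene moves. They spanned 5.36 log2 units for Irf4 and 1.71 for Irf8. Within each genotype both genes had the same order of states.

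**Figure D5:**
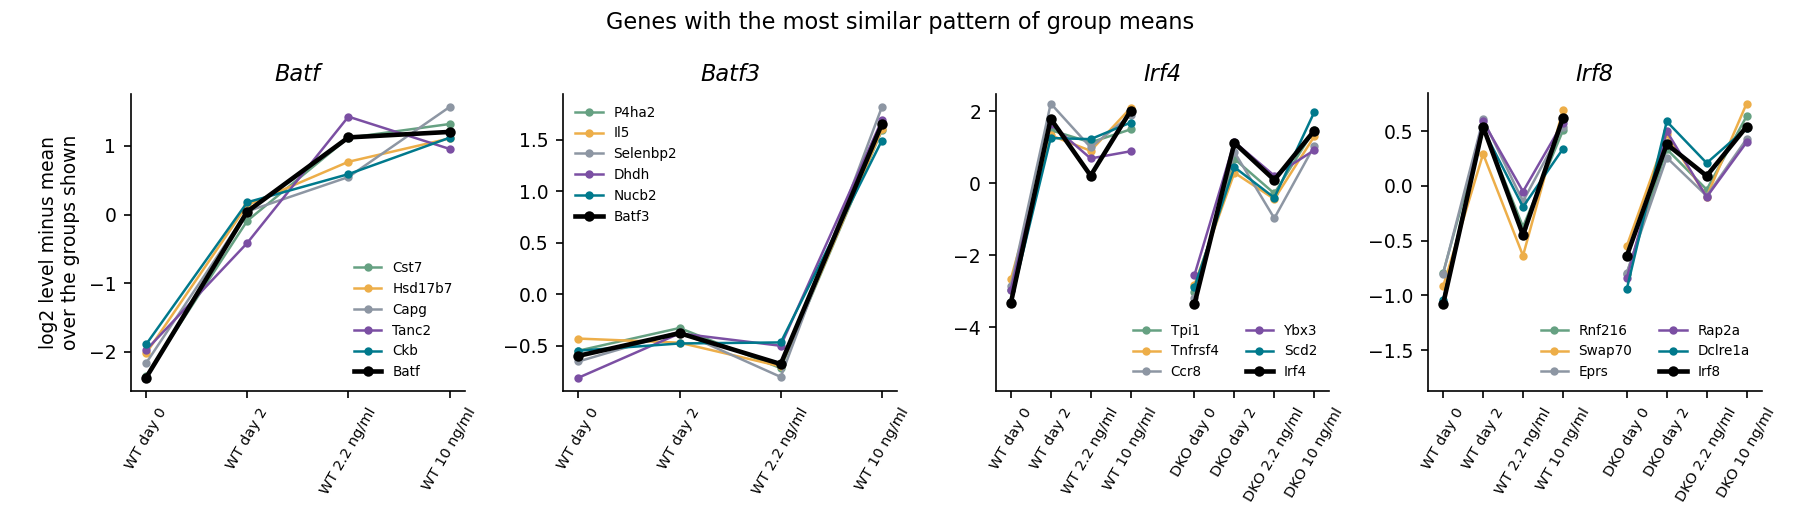
Log2 level minus the mean over the groups shown (vertical axis) for Batf, Batf3, Irf4 and Irf8 (black) and the 5 genes nearest to each (colours), by group (horizontal axis). The curves near Batf3 stay flat until 10 ng/ml, those near Irf8 dip at 2.2 ng/ml, and those near Irf4 differ from it by up to 0.571 as an RMS difference.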

How the data were processed

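The deposited table holds array intensities that the authors made with RMA, per the submitters' processing notes, on a linear scale from 1.95 to 14644.9. RMA subtracts background, quantile-normalizes and summarises probes, so shifts common to most genes are lost. The software version is not given in the sources used here, and no scan batch is given, so none was tested. Log2 was taken before any test.

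Of 35556 probe sets, 21789 carried 1 gene symbol in the platform annotation, and 21698 of those matched RefSeq (GRCm38.p6), which changed 0 symbols. Probe sets with several symbols (1621) or no listed gene (12146) were left out. Where a gene had several (999 genes), the brightest on average was kept, giving 19938 genes.

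One limma 3.58.1 model (R 4.3.3) with a mean for each of 8 groups was fitted to all 24 arrays (16 residual and 7.49 prior degrees of freedom). It gave 12 comparisons of states within a genotype, 4 of genotypes and 3 of changes between genotypes, each adjusted by Benjamini-Hochberg over all genes. Folds are ratios of geometric means. The fit was checked on simulated data.

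Named genes are the 5 members, up to 4 genes of a list per comparison with the smallest p, and the 5 genes nearest to each member whose group means span at least 1 log2 unit. Genes that a sentence lists as the ones counted are named beyond that rule. Members and lists were chosen with earlier results of these data known, so no list is independent evidence of its direction. Precision is limited by the number of arrays.

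The fit was repeated after dropping dim genes, averaging a gene's probe sets, adding cyclic loess or quantile normalization, fitting only the groups compared, blocking on the replicate number, moderating with a trend and robustly, weighting arrays, and omitting single arrays.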

Additional observations from a re-analysis of the deposited data

Results flagged for a closer look

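Of the values given for the 5 genes, 4 were marked because the change differed between the genotypes by a test of the difference itself, and all concern the knocked-out genes. Batf, as DKO change minus WT change on the log2 scale, differed by -2.36 from day 0 to day 2 and by -3.0 from day 0 to 10 ng/ml. Batf3 differed by -2.03 from day 0 to 10 ng/ml and by -2.03 between 10 and 2.2 ng/ml. Groups of 3 arrays are too small for a check of single outlying arrays.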

How the results depend on the processing

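Of 1420 values of the 5 genes under the alternatives, 1398 kept their call, or stayed uncalled, 7 lost a call, 15 gained one and 0 reversed a called direction, while 43 values that passed in neither fit had the other sign. From day 2 to 10 ng/ml in DKO cells, 1 gene in place of 0 was called, Batf, after dim genes were dropped (adjusted p = 0.0354), with the mean of probe sets (adjusted p = 0.0493) or with cyclic loess (adjusted p = 0.0469), and leaving out single arrays gave 0 to 1. Between genotypes at day 2, 2 in place of 1 were called with the compared groups alone or array weights, the second being Irf4. Leaving out single arrays gave 1 to 3 genes from day 0 to 2.2 ng/ml and 1 to 2 between doses in DKO cells. The replicate numbers were not found to pair the arrays: the median correlation of same-numbered deviations was 0.001, and 10 of 24 arrays correlated best with their own number. The replicate block left the calls of the other members as they were and called Batf2 in DKO cells from day 0 to 2.2 ng/ml (adjusted p = 0.0306; 3 genes) and between doses (0.42, adjusted p = 0.032; 3 genes). Array weights also called the latter (adjusted p = 0.0354). The former was also called with the dim filter (adjusted p = 0.0478), with quantile normalization (adjusted p = 0.0341) and without DKO day 0 replicate 2 (adjusted p = 0.0285). Over all genes, the count for the genotypes at day 0 was 13, against 4 with cyclic loess, 2 with the compared groups alone and 6 with array weights; at 2.2 ng/ml it was 739, against 462 with the compared groups alone. Leaving out single arrays took the all-gene count as low as 4 of 13 for the genotypes at day 0 (without DKO day 0 replicate 2), 298 of 541 at day 2 and 98 of 209 for the change to day 2 between genotypes (both without WT day 2 replicate 2), and 489 of 739 at 2.2 ng/ml (without DKO replicate 2 there). From day 2 to 2.2 ng/ml it went to 1223 of 2233 in WT cells (without replicate 2 at 2.2 ng/ml) and 564 of 1230 in DKO cells (without replicate 1 at 2.2 ng/ml), which also took the dose count from 1625 to 1058, and from day 2 to 10 ng/ml in DKO cells to 583 of 1033 (without replicate 3 at 10 ng/ml). Cyclic loess moved the median gene by 0.106 (log2) from day 0 to day 2 and by 0.103 to 10 ng/ml in WT cells. The cause of these changes was not tested.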
